A study of Mus musculus with 9 samples.

Results

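Endothelial surface and identity genes were followed in MCEC (murine cardiac endothelial cells, a cell line), when the transcription factor Zbtb46 was lowered or raised. The set held 10 genes of the 55487 in the count table, each found once by its symbol: Pecam1, Vwf, Emcn, Egfl7, Mcam, Icam2, Clec14a, Mmrn2, Ecscr and Nos3. They were chosen by name, with earlier results of these data known. RNA-seq after poly-A selection gave 9 libraries, 3 from unmodified cells (WT), 3 from cells labelled Zbtb46 knockdown (KD) and 3 from cells labelled Zbtb46 overexpression (OE). How the knockdown and the overexpression were made, and whether the modified cells were clones or pools, is not given in the sources used here, and no library from cells with a control vector was analysed here. Nothing in the labels says that the 3 libraries of a group came from separate cultures, so p-values measure only the spread between libraries, which may be technical. Adjusted p-values come from edgeR's quasi-likelihood fit with Benjamini-Hochberg correction over all genes tested, and a gene is said to be called, or to have risen or fallen, where it was under 0.05.

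The endothelium lines blood vessels, and its identity is read from a small set of proteins. Some sit at the cell surface and hold cells together or catch leukocytes: Pecam1 (CD31), Icam2 and Mcam (CD146) are adhesion molecules of the immunoglobulin superfamily, and Emcn (endomucin) is a sialomucin. Clec14a is a membrane protein with a C-type lectin domain that binds Mmrn2, a matrix protein of the EMILIN family, and Ecscr is a small membrane protein named for its roles in chemotaxis and apoptosis. Vwf is the platelet-binding glycoprotein stored in Weibel-Palade bodies, Egfl7 is a secreted protein with EGF-like domains, and Nos3 is the nitric oxide synthase of endothelial cells.

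Of the 10 genes, 4 had enough counts to be compared between groups (Mcam, Ecscr, Egfl7 and Nos3) and 6 were too low (Mmrn2, Pecam1, Vwf, Icam2, Emcn and Clec14a). In KD, Ecscr, Egfl7 and Mcam fell. In OE, Ecscr rose and Egfl7 fell. Ecscr thus differed in opposite directions from WT in the modified lines, and was 5.42-fold higher in OE than in KD, whereas Egfl7 was lower than WT in both.

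Total counts ran from 39491828 to 55745849 per library, and ribosomal RNA took 7.44% to 18.2% of them. Of all genes, 33519 had at least 1 count and 16955 passed the filter on low counts and were tested. The WT libraries varied more among themselves than the others. Their median absolute deviation from the group mean was 0.079 to 0.097 on the log2 scale, against 0.057 to 0.058 in KD and 0.057 to 0.067 in OE. Zbtb46 itself stood at 13.7 ± 0.623 CPM (counts scaled to library size with TMM factors, mean ± SD, n = 3) in WT, against 11.2 ± 0.537 in KD and 191 ± 2.67 in OE. The order of Zbtb46 levels thus matched the labels. In KD Zbtb46 fell by 17.8% only (log2 fold change -0.28, SE 0.055, edgeR adjusted p 0.00144), so the KD libraries kept most of its mRNA.

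The labelled cell type was checked against 12 endothelial markers, of which 6 were tested. The other 6, the junction genes Cdh5 and Cldn5, the receptor Tie1 and the transcription factors Erg, Sox17 and Sox18, had at most 10 counts in any library, and Erg had 0 in all. Cdh5, the cadherin of endothelial junctions, had 2, 0 and 2 counts in WT, 0 in each KD library and 1, 7 and 0 in OE. The markers with a mean of at least 1 CPM in WT were Cd34 at 122 ± 1.68 CPM (SD, n = 3), the VEGF receptors Flt1 at 17.2 ± 0.196 and Kdr at 2.64 ± 0.252, and the angiopoietin receptor Tek at 1.83 ± 0.114. The list summed to 143 to 146 CPM in WT, 99.7 to 106 in KD and 126 to 127 in OE. Most of this was Cd34. In OE, Flt1 rose (log2 fold change 0.35, SE 0.062, edgeR adjusted p 0.00151) and Tek fell (-1.99, SE 0.20, edgeR adjusted p 3.12e-06). Cd34, Fli1 and Kdr were also called lower in OE, and Esam was not called. The Kdr call in OE was lost when WT replicate 1 or 2, or OE replicate 1, was left out. In KD, Flt1 fell (-0.51, SE 0.067, edgeR adjusted p 1.09e-04), as did Kdr (-0.91, SE 0.16, edgeR adjusted p 0.00261) and Cd34. Tek, Fli1 and Esam were not called in KD. Of the 8 fibroblast or mesenchymal markers, 4 were above 1 CPM in every group. Col1a1 led at 5259 ± 290 CPM in WT, followed by Col3a1 at 3145 ± 151. Of those below 1 CPM, Col1a2 stood at 0.611 ± 0.0993 CPM in WT. Lum and Tcf21 had at most 2 counts in a library, and Postn at most 12. The list summed to 8090 to 8960 CPM in WT, 8040 to 8170 in KD and 5070 to 5190 in OE. Nearly all of this was Col1a1 and Col3a1. Thus 6 of the 12 markers of the labelled cell type, Cdh5 among them, were at or near 0 in all 9 libraries.

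Of the other lineages, the leukocyte, cardiomyocyte and mural lists summed to at most 5.75 CPM in any library. The lymphatic endothelial and epithelial lists summed to more than the endothelial list. Of the 7 leukocyte markers, 5 had at most 10 counts in any library, Ptprc among them, and the list's summed level was 3.18 to 5.75 CPM. The cardiomyocyte list summed to 0.656 to 2.15 CPM, with Myh6 at 0 in every library, and the mural list to 2.12 to 5.65 CPM. Of the lymphatic endothelial markers, Prox1 and Lyve1 had at most 10 counts in any library, while Flt4 and Pdpn were tested, and the list summed to 159 to 210 CPM. The epithelial list summed to 437 to 563 CPM, nearly all of it Krt19, with Epcam at no more than 2 counts in a library.

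**Figure D1:**
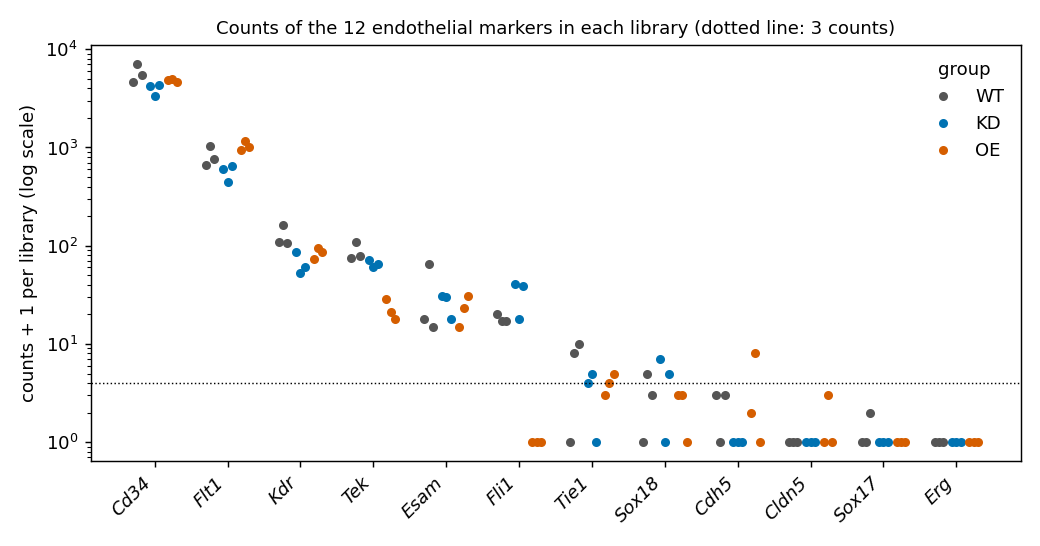
Counts plus 1 of the 12 endothelial markers (log axis) in each of the 9 libraries, 3 points per group, ordered by total counts. Cd34 and Flt1 stand far above the rest, while Tie1, Sox18, Cdh5, Cldn5, Sox17 and Erg lie at 10 counts or fewer.

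Upstream sequences are shown because they set a gene with counts in every library beside genes at or near 0. RefSeq upstream windows of 250 bases (GRCm38.p6) were held for 4 members, Egfl7, Emcn, Mcam and Clec14a. For Egfl7, with counts in every library, the stretches before the first and the last of 3 annotated start sites are printed, and for Emcn and Clec14a, with at most 2 counts in a library, those before their single start sites. They run 5′ to 3′ along the gene, cover chr2:26580906-26581055 and chr2:26586480-26586629 on the plus strand, chr3:137340917-137341066 on the plus strand and chr12:58269291-58269440 on the minus strand, and leave out annotated exons. Capitals mark CpG dinucleotides.
Egfl7, first start: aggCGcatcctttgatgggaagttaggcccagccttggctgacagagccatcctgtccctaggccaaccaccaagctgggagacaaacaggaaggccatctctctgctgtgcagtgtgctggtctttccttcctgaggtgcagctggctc
Egfl7, last start: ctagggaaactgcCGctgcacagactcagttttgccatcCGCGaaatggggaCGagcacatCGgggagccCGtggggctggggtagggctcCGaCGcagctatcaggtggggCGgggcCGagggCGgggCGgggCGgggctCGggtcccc
Emcn: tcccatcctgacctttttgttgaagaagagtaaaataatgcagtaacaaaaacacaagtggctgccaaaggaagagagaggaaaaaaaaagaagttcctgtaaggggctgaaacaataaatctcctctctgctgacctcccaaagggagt
Clec14a: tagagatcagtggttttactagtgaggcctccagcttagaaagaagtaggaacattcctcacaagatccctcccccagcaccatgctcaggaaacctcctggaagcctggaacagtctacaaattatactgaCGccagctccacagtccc

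Over the whole windows, the observed over expected CpG ratio was 0.739 for Mcam, 0.706 for the last Egfl7 start, 0.339 for its middle start and 0.144 for its first. It was 0.249 for Clec14a and 0.0965 for Emcn. The median of all 32841 windows was 0.374, and 34% of them reached 0.6. GC content ran from 40.8% in the Emcn window to 73.6% in the Mcam window, around a median of 52.4%. Of the motifs searched on both strands, GGGCGG (SP1) was found for Mcam and the last Egfl7 start and stands in 32.7% of all windows. CAGGAAG (ETS) was found for Emcn and the other Egfl7 starts and stands in 10.8%. TGACGTCA (CRE) was found for Mcam and stands in 1.55%. The other ETS motif, CCGGAAG, was not in these windows and stands in 6.91% of all. Neither was AGATAA, bound by factors of the GATA family, which stands in 9.99%. The TATA box, searched as TATAAA, was not found either and stands in 12.4%. The ETS motifs share the letters GGAAG, and by their letters the motifs found in the Mcam window cannot overlap. These are matches of letters, not measured binding.

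The 6 members too low to compare had 145 counts among them over the 9 libraries. Clec14a had 0 counts in every library. A count of 0 allows up to 3 counts, or 0.0504 to 0.0791 CPM depending on the library, which covers counting error only. Emcn had 2 counts in WT replicate 3 and 0 in the other 8 libraries, and Icam2 had 1 and 2 counts in KD replicates 1 and 2 and 0 elsewhere.

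Vwf had 6, 5 and 2 counts in WT, 2, 0 and 1 in KD and 1, 3 and 0 in OE. Pecam1 had 0, 5 and 4 counts in WT, 5, 1 and 0 in KD and 4, 7 and 10 in OE. All groups overlapped for Pecam1. For Vwf the counts of WT and KD met at 2, but as CPM every WT library (0.158, 0.0840 and 0.0448) lay above every KD library (0.0397, 0 and 0.0205), a difference of a few counts, and OE overlapped both. Mmrn2, the matrix ligand of Clec14a, was the highest of the 6, with 4, 11 and 8 counts in WT, 9, 9 and 20 in KD and 8, 7 and 8 in OE, a mean of at most 0.272 CPM in any group. With no filter beyond 1 count, 5 of the 6 could be fitted, and 0 were called by edgeR in any comparison. None had an unadjusted p under 0.05 (0 at that level, the lowest being 0.130), and the lowest edgeR adjusted p was 0.367, both for Pecam1 between OE and KD. No difference in these genes passed at this depth, which does not show that they did not differ.

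**Figure D2:**
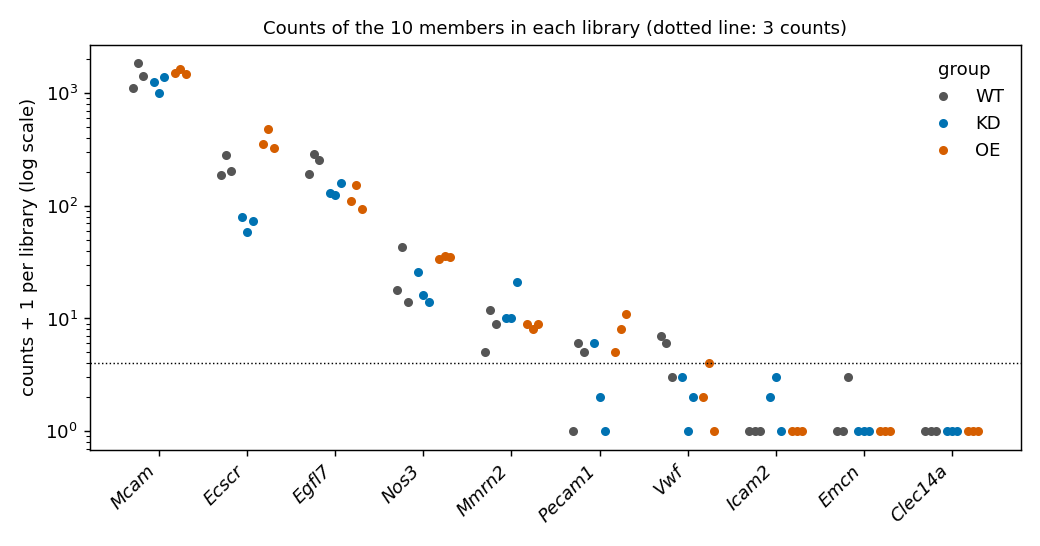
Counts plus 1 of the 10 endothelial surface and identity genes (log axis) in each of the 9 libraries, 3 points per group, ordered by total counts. Mcam lies between 1005 and 1852 counts, Ecscr and Egfl7 between 58 and 483, Nos3 between 13 and 42, and the other 6 at 20 or fewer.

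Mcam held most of the signal of the set, with 76.4% of the 10 genes' counts. Per kilobase of exon, its level in WT was 9.20 CPM, above 69.9% of the genes tested. Ecscr followed at 2.70 CPM per kilobase (above 44.4%), Egfl7 at 1.45 (above 34.4%) and Nos3 at 0.117 (above 6.90%). In KD, Ecscr (0.860) and Egfl7 (0.836) were close to each other per kilobase, and in OE Ecscr stood at 4.67 against 0.694 for Egfl7.

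Mcam lies on chromosome 9 from 44134469 to 44142727, plus strand (GRCm38, GENCODE M21). It was measured at 29.3, 31.1 and 32.0 CPM in WT, 25.0, 25.2 and 28.4 in KD and 32.3, 33.1 and 32.8 in OE. Every KD library lay below every WT library and every OE library above, although the gap between WT replicate 3 and the lowest OE library was small. Mcam was 1.18-fold lower in KD than in WT (log2 fold change -0.23, SE 0.070, edgeR adjusted p 0.0122). In KD 3 of the 4 tested members were called, all lower, where 10.4% of all genes tested were called lower, 11.0% higher and 21.3% in either direction. The same 3 did not overlap WT, as did 34.7% of all genes tested. The Mcam call was lost without KD replicate 1 (-0.20, adjusted p 0.0806) or KD replicate 2 (-0.21, adjusted p 0.0690). In OE the difference from WT was 0.087 (SE 0.040), with an edgeR adjusted p of 0.321, so it did not pass although the groups did not overlap, which held for 45.1% of all genes tested. OE was 1.25-fold higher than KD (0.32, SE 0.060, edgeR adjusted p 3.61e-04).

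The neighbourhood of Mcam had medians of the opposite sign. Its 20 Mb window on chromosome 9 held 204 tested genes, whose median against WT was 0.16 (log2) in KD and -0.41 in OE. With these medians subtracted, the Mcam change was -0.40 in KD, 0.49 in OE and 0.85 between OE and KD, values without a test. Cbl, a ubiquitin ligase gene 249 bases away, stood at 96.2 ± 15.6 CPM (SD, n = 3) in WT and was not called in KD or OE against it. Between OE and KD, Cbl was called lower in OE (-0.49, SE 0.050, edgeR adjusted p 0.00163), where Mcam was higher.

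Ecscr lies on chromosome 18 from 35713086 to 35722356, minus strand. It had 187, 284 and 201 counts in WT, 79, 58 and 73 in KD and 354, 483 and 326 in OE. As scaled levels these were 4.93, 4.77 and 4.50 CPM in WT, 1.57, 1.46 and 1.50 in KD and 7.55, 9.75 and 7.25 in OE. No group overlapped another, and OE replicate 2 was the highest of all. Ecscr was 3.13-fold lower in KD than in WT (log2 fold change -1.65, SE 0.049, edgeR adjusted p 1.76e-07). Of the genes tested, 1.75% changed by more in that comparison.

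In OE, Ecscr was 1.73-fold higher than in WT (log2 fold change 0.79, SE 0.14, edgeR adjusted p 9.19e-05). With OE replicate 2 left out the change was 0.65, and it was called in all 19 alternative analyses that gave a test. Of the 4 tested members, 1 was called higher in OE and 1 lower, where 17.0% of all genes tested were called higher, 19.5% lower and 36.4% in either direction. Between OE and KD the difference in Ecscr was 2.44 (SE 0.14, edgeR adjusted p 4.23e-11), and 1.94% of genes tested differed by more. In that comparison 2 of the 4 were called, both higher in OE, where 19.4% of all genes tested were called higher, 22.1% lower and 41.5% in either direction. The OE libraries of Mcam, Ecscr and Nos3 lay wholly above those of KD. Of all genes tested, 55.4% did not overlap in that comparison, counting both directions.

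Of the genes around Ecscr, none of those given here was called. Dnajc18, the nearest protein-coding gene that does not overlap it at 4672 bases, stood at 23.1 ± 1.37 CPM (SD, n = 3) in WT and was not called in any comparison. 1700066B19Rik overlaps 62 exonic bases of Ecscr on the opposite strand and had 7 to 22 counts per library. Its OE libraries lay above those of WT, by a log2 fold change of 0.78 (SE 0.35, edgeR adjusted p 0.267) that is close to the Ecscr value of 0.79, and above those of KD (0.82, SE 0.32, edgeR adjusted p 0.225), while KD and WT overlapped (-0.046, SE 0.39, edgeR adjusted p 0.970). Whether the counting used strand is not given in the sources used here, so counts in overlaps could be shared, but these were few beside those of Ecscr.

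Egfl7 lies on chromosome 2 from 26580014 to 26593120, plus strand. Its levels were 5.01, 4.84 and 5.71 CPM in WT, 2.58, 3.14 and 3.26 in KD and 2.32, 3.07 and 2.07 in OE. All 6 libraries of the modified lines lay below all 3 WT libraries, and KD and OE overlapped. Egfl7 was 1.73-fold lower in KD (log2 fold change -0.79, SE 0.13, edgeR adjusted p 0.00138) and 2.08-fold lower in OE (-1.05, SE 0.18, edgeR adjusted p 3.65e-05). Both comparisons share the WT libraries, so a chance deviation of these would enter both. Between OE and KD the difference was -0.26 (SE 0.20), with an edgeR adjusted p of 0.248, which does not show that the lines were alike.

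The Egfl7 gene is known as the host of miR-126, a microRNA of endothelial cells, whose 3′ arm is printed here with its seed (bases 2 to 8) in capitals to show what the locus also encodes.
mmu-miR-126a-3p: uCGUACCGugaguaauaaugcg
The hairpin lies at chr2:26591357-26591429 (RefSeq, GRCm38.p6). Of the 19 Egfl7 transcripts in GENCODE M21, 9 span it, and an exon of 1 of these covers it. The Mir126a entry had 0 counts in all 9 libraries. Libraries of poly-A RNA are not made to capture a mature microRNA of 22 bases, so this says nothing of its level. Agpat2, an acyltransferase gene on the opposite strand that shares 64 exonic bases with Egfl7, stood at 23.5 ± 1.90 CPM (SD, n = 3) in WT and was not called. Notch1, 63351 bases away, was 2.56-fold lower in OE than in WT (log2 fold change -1.36, SE 0.19, edgeR adjusted p 4.41e-07) and did not pass in KD (-0.27, SE 0.16, edgeR adjusted p 0.151). Egfl8, a relative of Egfl7, was at 0.437 ± 0.0896 CPM in WT and was not called.

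Nos3 lies on chromosome 5 from 24364810 to 24384474, plus strand. It had 17, 42 and 13 counts in WT, 25, 15 and 13 in KD and 33, 35 and 34 in OE, or 0.448, 0.706 and 0.291 CPM, then 0.497, 0.377 and 0.266 CPM, then 0.703, 0.707 and 0.756 CPM. The OE libraries lay above all KD libraries, and WT spanned nearly the whole range, with WT replicate 2 level with OE. No comparison of Nos3 was called. The log2 fold changes were -0.36 (SE 0.41) in KD and 0.56 (SE 0.34) in OE against WT, with edgeR adjusted p of 0.604 and 0.287. Without WT replicate 2 the KD value became 0.054 and the OE value 0.96. Between OE and KD the difference was 0.92 (SE 0.23, edgeR adjusted p 0.0700), and it passed in 3 of the 19 alternatives. Nos3 shares 1040 exonic bases with Gm15587 and 294 with Atg9b, both on the opposite strand. Gm15587 had at most 2 counts in a library, and Atg9b had 46 to 110, more than Nos3 itself, so the Nos3 counts are uncertain.

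**Figure D3:**
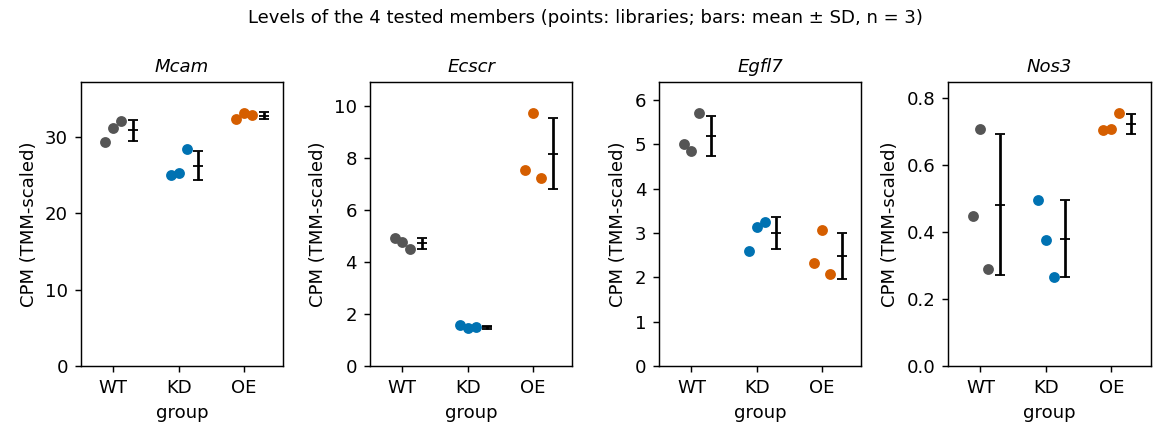
TMM-scaled CPM of Mcam, Ecscr, Egfl7 and Nos3 in WT, KD and OE, one panel per gene with a vertical axis from 0. Points are libraries, and the black bar beside them is the mean ± SD (n = 3). Ecscr and Mcam separate all 3 groups, with only a small gap between WT and OE for Mcam. Egfl7 separates WT from the others, and the Nos3 libraries of WT overlap those of both KD and OE.

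**Figure D4:**
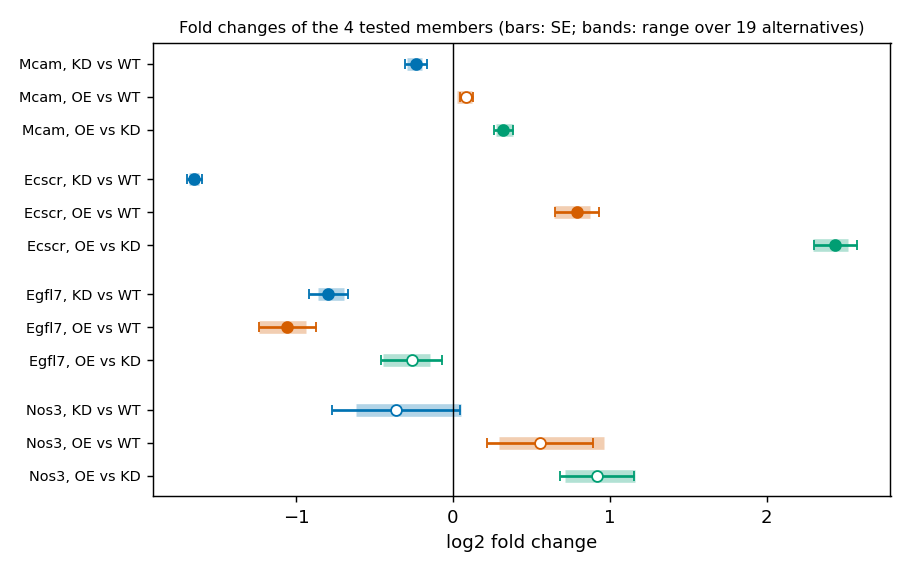
Log2 fold changes of the 4 tested members in 3 comparisons. Points are the edgeR values with SE bars, filled where the adjusted p was under 0.05, and bands span the 19 alternative fits. The Ecscr and Egfl7 bands against WT stay on one side of 0, and the Nos3 band in KD crosses it.

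The genes whose pattern over the 9 libraries was most like each called member were found among 9803 genes with at least 5 CPM in a group, by Pearson's r of log2 CPM. The libraries fall into 3 groups, so r mostly reflects the group means. For Ecscr they were Nphp4 (r = 0.993) and Pcbp3 (r = 0.992), the latter at 7.61 ± 0.641 CPM in WT, 2.72 ± 0.249 in KD and 11.6 ± 1.30 in OE (SD, n = 3). For Egfl7 they were Natd1 (r = 0.971) and Unk (r = 0.968), and for Mcam Depdc5 (r = 0.979) and Sptb (r = 0.976). Pearson's r takes no account of the size of a change. Natd1 stood at 50.2 ± 1.71 CPM in WT, 42.8 ± 0.924 in KD and 39.7 ± 1.16 in OE, smaller falls in proportion than those of Egfl7. Nphp4, at 18.3 ± 0.743, 12.5 ± 0.0884 and 21.6 ± 0.833 CPM, likewise changed less than Ecscr.

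Other endothelial surface and junction molecules were read from a list of 35 genes, of which 22 were tested. In KD 3 were called higher and 6 lower (40.9% of those tested, against 21.3% of all genes tested), and the median was -0.18 on the log2 scale (all genes tested: -0.0022). The 3 with the smallest p were the sialomucins Cd34 (-0.51, SE 0.033) and Podxl (-0.47, SE 0.076), which fell, and the endothelial receptor phosphatase Ptprb (0.82, SE 0.090), which rose. In OE 3 were called higher and 14 lower (77.3%, against 36.4% of all genes tested), with a median of -0.48 (all genes tested: 0.0020). Vcam1, a ligand for leukocyte integrins, fell most clearly (-1.57, SE 0.076), followed by Ptprb (-1.85, SE 0.14) and the junction molecule F11r (-0.53, SE 0.010). All 6 of these changes had an edgeR adjusted p of at most 6.99e-06, that of Ptprb in KD. In the other line, Cd34 was also called lower in OE (-0.25, SE 0.019) and F11r lower in KD (-0.17, SE 0.016). Podxl was called higher in OE (0.23, SE 0.075), a call lost with library totals alone (0.16, edgeR adjusted p 0.118). The summed fibroblast and mesenchymal markers, nearly all Col1a1 and Col3a1, were also lower in OE, as given above. Their part in the fall was not tested. In bulk RNA, fewer cells of a type and less RNA per cell cannot be told apart.

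Relatives and binding partners of the members formed a list of 28 genes, 21 of them tested. In KD 4 were called higher and 7 lower, or 52.4% against 21.3% of all genes tested, with a median of 0.019 against -0.0022. In OE 2 were called higher and 11 lower, or 61.9% against 36.4%, with a median of -0.63 against 0.0020. Cd93 is a relative of Clec14a that also binds Mmrn2, and, unlike Clec14a, it was measured. It stood at 5.99, 4.84 and 4.10 CPM in WT, 8.17, 10.4 and 8.91 in KD and 0.576, 1.19 and 1.16 in OE. It rose in KD (log2 fold change 0.88, SE 0.19, edgeR adjusted p 0.00119) and fell in OE (-2.34, SE 0.36, edgeR adjusted p 6.63e-08), where Ecscr fell in KD and rose in OE. Cd248, another relative of Clec14a, fell in OE (-0.84, SE 0.11, edgeR adjusted p 4.35e-08). It was also called lower in KD (-0.29, SE 0.11, edgeR adjusted p 0.0107), a call lost when WT replicate 3, or either of KD replicates 1 and 2, was left out.

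Of the EMILIN family to which Mmrn2 belongs, Emilin1 fell in KD from 7.66 ± 1.03 to 2.89 ± 0.368 CPM (-1.41, SE 0.15) and rose in OE to 10.5 ± 0.417 (0.45, SE 0.11). Emilin2, lower at 1.95 ± 0.182 CPM in WT and 0.285 ± 0.133 in KD, fell in KD (-2.73, SE 0.37). It was not called in OE (-0.29, SE 0.13). The edgeR adjusted p of these called changes was at most 0.00466, for Emilin1 in OE. Alcam, an immunoglobulin superfamily relative of Mcam, fell in both lines (-0.76, SE 0.12 in KD, and -0.63, SE 0.12 in OE). Lgals3, a galectin that binds surface glycans, rose in KD (0.30, SE 0.067) and in OE (0.23, SE 0.059). Of these 4 changes, the highest edgeR adjusted p was 9.18e-04, that of Lgals3 in OE.

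Of the relatives of Icam2, Icam1 was at 5.30 ± 0.121 CPM (SD, n = 3) in WT, rising to 7.26 ± 0.293 in KD, and at 2.87 ± 0.256 in OE. It rose in KD (0.45, SE 0.038, edgeR adjusted p 0.00964) and fell in OE (-0.88, SE 0.077, edgeR adjusted p 1.32e-05). Icam5 fell in OE (-0.99, SE 0.13, edgeR adjusted p 6.59e-05) and Icam4 had 0 counts in every library. Icam1 and Icam5 were thus measured where Icam2 was not.

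For Vwf, a list of 24 genes of Weibel-Palade body content and release held 21 that were tested. In KD 7 were called higher and 5 lower, or 57.1% against 21.3% of all genes tested, with a median of 0.088 against -0.0022. In OE 3 were called higher and 6 lower, or 42.9%, near the 36.4% of all genes tested, with a median of -0.058 against 0.0020. The release factor Unc13b (0.61, SE 0.062), the annexin Anxa2 (0.32, SE 0.041) and the SNARE protein Stx3 (0.35, SE 0.057) rose in KD. In OE Anxa2 fell (-0.56, SE 0.046), the small GTPase Rab3d fell (-0.68, SE 0.050) and Stxbp5 rose (0.36, SE 0.062). All 6 had an edgeR adjusted p of at most 3.10e-04, that of Stx3. In the other line, Stxbp5 was also called higher in KD (0.29, SE 0.056), while Rab3d in KD (-0.24, SE 0.058) and Unc13b in OE (-0.17, SE 0.062) were called lower. The Rab3d call was lost when WT replicate 3, or either of KD replicates 2 and 3, was left out, and the Unc13b call when WT replicate 2, or either of OE replicates 1 and 3, was left out. The genes named from this list were thus measured in cells whose Vwf counts were 6 or fewer per library.

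For Nos3, a list of 28 genes of nitric oxide control held 25 that were tested. In KD 6 were called higher and 4 lower, or 40% against 21.3% of all genes tested, with a median of -0.034 against -0.0022. In OE 6 were called higher and 7 lower, or 52% against 36.4%, with a median of -0.10 against 0.0020. Cav1, the caveolin that binds and restrains the enzyme, rose in KD (0.48, SE 0.038) and fell in OE (-0.50, SE 0.053). The arginine transporter Slc7a1 rose in both (0.43, SE 0.056 in KD, and 0.39, SE 0.062 in OE). Klf4, a transcription factor known to raise Nos3, rose in KD (0.65, SE 0.058). It also rose in OE (0.18, SE 0.050, edgeR adjusted p 0.0140), a call lost with library totals alone (0.11, edgeR adjusted p 0.300) and without WT replicate 1 or OE replicate 2. Ass1, which makes the precursor of arginine, fell in OE (-1.98, SE 0.084). Apart from Klf4 in OE, these changes had an edgeR adjusted p of at most 5.49e-07, that of Slc7a1 in KD.

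**Figure D5:**
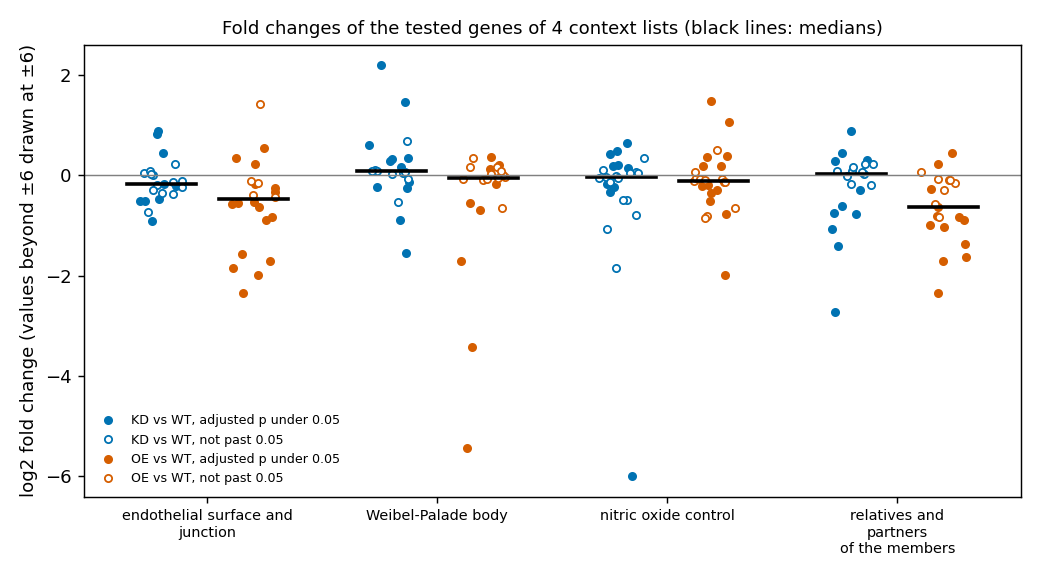
Log2 fold changes against WT of the tested genes of 4 lists, with KD in blue and OE in orange. Filled points had an adjusted p under 0.05, and black lines are list medians. The point drawn at -6 is a gene with 0 counts in KD, whose fitted value is no bound. The endothelial surface and junction list and the list of relatives and partners lie mostly below 0 in OE, with medians of -0.48 and -0.63.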

How the data were processed

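Gene expression was analysed from a single deposited table of raw counts, in which the authors give whole numbers for each Ensembl gene in each library. Its unit was judged from the values. Of its 55774 rows, 455 repeat 168 genes with identical counts, which left 55487 genes. All 9 columns were matched to a sample by name, with 0 others. The submitters' processing notes name GRCm38 and mm10; the aligner, counter, use of strand and annotation are not given in the sources used here. Positions came from GENCODE M21 (GRCm38), which held 55141 of the genes. Genes were kept with filterByExpr (16955), scaled with TMM and fitted with edgeR 4.0.16 (robust quasi-likelihood, R 4.3.3) in 1 model over 9 libraries with group as the only term, p-values being adjusted by Benjamini-Hochberg with a threshold of 0.05. SEs came from the spread of log2 CPM (prior count 2) within each group. A member that the filter removed was called too low to compare. With 3 libraries against 3, the smallest two-sided p of an exact permutation is 0.1, so the model was used. Alternatives were other scalings (DESeq2 1.42.0 size factors, upper quartile, library totals), other filters, removal of ribosomal RNA, DESeq2, limma 3.58.1 (voom), fits of only the groups compared, a replicate block, window medians subtracted, and leaving out each library. The fit was tested on simulated counts with the same spread for all genes and groups, unlike the real libraries. It recovered 85.4% of changes of 1 and 60.8% of changes of 0.5 (log2). Of its calls, 6.62% were genes left unchanged. Named list genes were the 3 with the smallest p per list against WT among those with at least 5 CPM in a group, with relatives and partners named beside their member. The members and lists were chosen with earlier results of these data known.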

Additional observations from a re-analysis of the deposited data

How the results depend on the processing

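Each result was recomputed under 19 alternatives with a test. Of the members, 2 or 3 were called in KD, 2 in OE and 2 or 3 between OE and KD. The main fit tested 4 members, and called 21.3%, 36.4% and 41.5% of all genes tested in these comparisons. Over all genes the counts of calls stayed within 1.5 times the main ones (2473 to 4699, 5129 to 6452 and 6019 to 8138). With library totals alone the share of calls that were higher was 35.8% in KD and 31.6% in OE against WT, in place of 51.4% and 46.6%, while the members called were as many and in the same directions. The Nos3 change in KD ran from -0.62 to 0.054 when 1 library was left out and turned to 0.054 without WT replicate 2; the cause was not tested. Between OE and KD, Nos3 passed with upper-quartile factors, at least 10 counts in every library, or only those groups fitted (edgeR adjusted p 0.0495, 0.0407 and 0.0496). Leaving out 1 library gave 2537 to 4699, 5228 to 6440 and 6072 to 7604 calls over all genes. With the replicate number as a block, 3, 2 and 2 members were called, as without it; same-numbered libraries did not deviate together (correlations of -0.042 to 0.049, and 2 of 9 libraries matched best with their own number), so the numbers were not taken to pair the samples. In the same alternatives, added for other genes after seeing the data, 6 of 89 called changes lost their call in some fit. Counts limit the lowest genes: members with at most 20 counts in a library were too low to be tested.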

Other observations

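Genes outside the naming rule, chosen after their values were seen, had groups at or near 0 counts beside groups with counts in every library. Gucy1b1, a subunit of the guanylate cyclase that nitric oxide activates, had 44, 100 and 28 counts in WT, 0 in each KD library and 140, 188 and 137 in OE. WT was at least 17.7-fold and OE at least 50-fold above KD when KD is set at 3 counts per library. The change was called in KD (edgeR adjusted p 7.79e-07) and in OE, where it rose (1.48, SE 0.41, edgeR adjusted p 4.90e-04).

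Among the release factors of Weibel-Palade bodies, Rab27a, the small GTPase of the granule, had 80, 105 and 87 counts in WT, 36, 35 and 19 in KD and 2, 4 and 0 in OE, and was called lower in both lines. Its effector Sytl4 had 33, 72 and 31 counts in WT, 191, 177 and 230 in KD and 2, 2 and 8 in OE, and was called higher in KD (2.20, SE 0.24, edgeR adjusted p 2.46e-06) and lower in OE (-3.42, SE 0.51, edgeR adjusted p 1.24e-06). Fli1, an ETS transcription factor of endothelial and blood cells, had 19, 16 and 16 counts in WT, 40, 17 and 38 in KD and 0 in each OE library, so WT was at least 5.90-fold above OE.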
